A study of Mus musculus with 6 samples.

Results

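The ubiquitin-specific proteases other than Usp37 were taken as every gene of the count table whose symbol is Usp followed by a number and an optional letter, with Usp37 left out. There were 49 such genes among the 24421 genes of the table. A read was found for 48 of them, and 45 passed the filter on low counts and were tested. The RNA was that of adult neural stem cells in primary culture, taken from the subventricular zone beside the lateral ventricles and kept with EGF and FGF2 at 20 ng/ml. The donors were C57BL/6 mice of postnatal day 60, and no genetic change is named for either group. For 3 days the cells received either DMSO, the solvent, or 20 µM PluriSIn#2, an inhibitor of topoisomerase IIA according to the series text, and medium was changed at 24 h. Each group held 3 libraries. No label says how many mice or cultures stand behind them, and p-values therefore measure the spread between these libraries, which may be technical. For treated replicates 2 and 3 the labels disagree on the number that follows the name PluriSIn, and the grouping used here is that of the titles.

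Ubiquitin is a small protein that other enzymes attach to substrates as a single unit or as chains, often as a signal for the proteasome. Ubiquitin-specific proteases (USPs) form the largest family of deubiquitinases, cysteine proteases that cut ubiquitin off again, and thereby spare a substrate, edit a signal or recycle ubiquitin. Members differ in their substrates and in where they sit in the cell, from chromatin and the mitotic apparatus to endosomes and the mitochondrial surface. In dividing progenitors they are best known for acting on proteins of DNA repair, the cell cycle and the p53 pathway.

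Library totals ran from 16670962 to 19241869 counts. Of 10 neural stem cell markers 4 rose and 6 fell, with Gfap at 2.84, Nes at -1.44, Egfr at -1.31 and Fabp7 at -1.23 on the log2 scale; their summed level, mostly Vim and Slc1a3, was 8390 to 8500 CPM (counts per 1000000 of the library's TMM-scaled total) in DMSO and 7890 to 7920 CPM in PluriSIn#2. All 6 cell cycle markers fell, from a summed 2870 to 2920 CPM to 69.3 to 77.1 CPM. Of 12 macrophage markers 10 were tested, and all 10 rose (the 12 summed to 7.71 to 8.68 CPM in DMSO and 178 to 183 CPM in PluriSIn#2, with Trem2 at 0 in DMSO). Markers of fibroblasts and mural cells rose in 7 of 9 (170 to 176 and 308 to 309 CPM), with a median of 4.51 on the log2 scale. Most of their DMSO sum was Cspg4, which fell from 149 to 86.1 CPM, while Col3a1 rose from 0.629 to 61.5 CPM. Markers of endothelium rose in 5 of 6 (5.33 to 5.85 and 27.9 to 31.0 CPM) and those of ependyma in 6 of 6 (39.0 to 41.0 and 157 to 158 CPM). Neuronal markers rose in 4 of 7 and fell in 1 (939 to 988 and 479 to 486 CPM). Most of that sum was Map2, the 1 that fell, from 892 to 383 CPM. Markers of the oligodendrocyte lineage fell in 6 of 6 (1080 to 1130 and 660 to 663 CPM, mostly Olig2). The part of these cells in the values of the USP genes was not tested, and in bulk RNA fewer cells of a type and less RNA per cell cannot be told apart.

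The USP transcripts were mostly lower in treated cells. Of the 45 members tested, 29 fell, 10 rose and 6 were not called at an adjusted p under 0.05 (quasi-likelihood test of edgeR, Benjamini-Hochberg adjusted over 14417 genes, the source of the adjusted p-values below). Of all genes tested 82.6% were called, 41.7% higher and 40.9% lower. The called share of the members, 86.7%, was thus near that of all genes, while 64.4% of them were called lower and 22.2% higher. Values of the groups did not overlap for 40 of 45 members, where 82.7% of all genes tested showed no overlap. The median log2 fold change was -0.28 over the members and 0.01 over all genes tested, and the members' quartiles were -0.62 and -0.03.

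Most of these changes were small. Falls of at least 2-fold were called for 6 members (13.3%, beside 11.7% of all genes tested), and a rise of at least 2-fold for 1, Usp35 (2.22%, beside 16.3%). Usp2 joined the latter under library totals and in limma on log2(FPKM + 0.1) (1.01 in both), and Usp29 did so without treated replicate 1 (1.07). Usp28 left the falls of that size, at -0.97, under library totals, in limma on log2(FPKM + 0.1), without treated replicate 3 and with treated replicate 1 alone. In limma on log2(FPKM + 1) Usp28 (-0.88) and Usp13 (-0.92) left them. Summed over the 49 members, the level was 4283, 4292 and 4268 CPM in the DMSO libraries and 3419, 3420 and 3415 CPM in the treated ones. Every treated library lay below every DMSO library, a difference of 20.2% (exact permutation test, two-sided, p = 0.1, the smallest that 3 against 3 allows). The size depends on the measure: FPKM summed over 48 members had a mean of 861.9 in DMSO and 742.8 in PluriSIn#2, 13.8% lower.

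**Figure D1:**
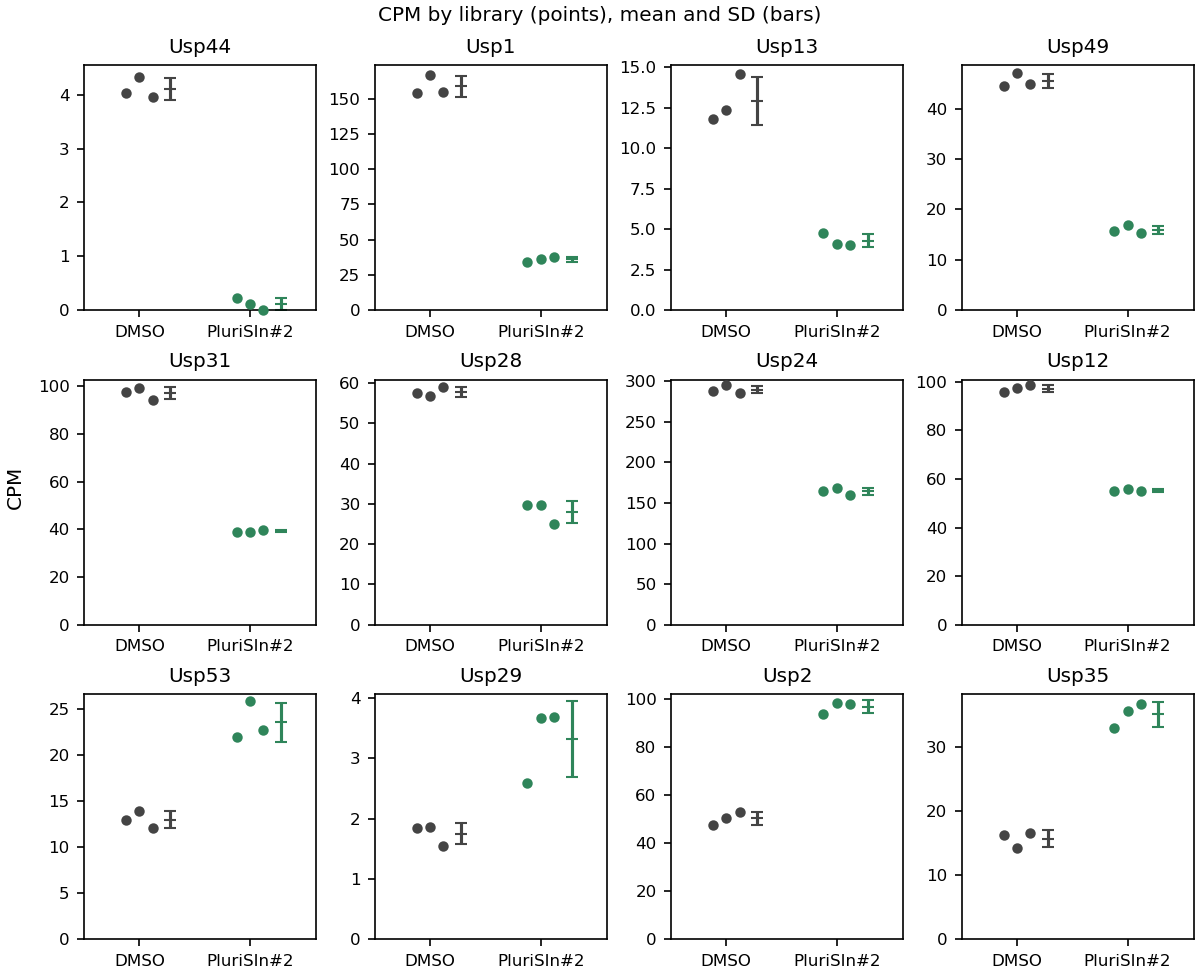
CPM (vertical axes, each starting at 0) of the 12 members with a called change of at least 0.8 on the log2 scale, in 3 DMSO and 3 PluriSIn#2 libraries (points), with the mean and SD beside them. In each panel the points of the groups stand apart: 8 members are lower and 4 (Usp53, Usp29, Usp2 and Usp35) higher in PluriSIn#2.

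Each of the 9 members listed for DNA damage and mitosis fell (median -0.54 on the log2 scale). The steepest fall was that of Usp44, a deubiquitinase of the spindle checkpoint that acts on the Cdc20 form of the anaphase-promoting complex. It had 72, 77 and 74 reads in the DMSO libraries (4.03, 4.33 and 3.95 CPM) and 4, 2 and 0 reads in the treated ones (0.226, 0.110 and 0 CPM). The transcript was thus low in control cells and close to absent in each treated library. Its log2 fold change was -5.10 (SE 0.38, adjusted p = 4.4e-22), a size that rests on 6 treated reads: it was -6.02 without treated replicate 1 and -4.14 with that replicate alone. On the log2(FPKM + 1) scale, which compresses low genes, the value was -1.17.

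Usp1, which removes single ubiquitins from the replication and repair proteins FANCD2, FANCI and PCNA, was among the more abundant members in DMSO. It stood at 154, 167 and 155 CPM in DMSO and at 33.9, 36.2 and 37.9 CPM in PluriSIn#2. The treated libraries lay close together far below the controls, a 4.41-fold difference (log2 fold change -2.14, SE 0.043, adjusted p = 2.41e-62). The genes of its substrates fell too, with Fancd2 at -5.27, Fanci at -3.30 and Pcna at -2.84. Wdr48, whose product switches on USP1, USP12 and USP46, fell far less, from 74.9 ± 1.45 to 55.1 ± 1.29 CPM (mean ± SD, n = 3; log2 fold change -0.44, SE 0.045, adjusted p = 2.59e-15).

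Usp28, which binds the damage sensor 53BP1 and stabilises Myc, fell from 57.4, 56.8 and 59.1 CPM to 29.6, 29.7 and 24.9 CPM. Treated replicate 3 was the lowest, and all treated values were well below the controls (log2 fold change -1.04, SE 0.057, adjusted p = 3.16e-30). The 6 remaining members of the list fell by less. Usp51, a nuclear USP of histone H2A and H2B, was at -0.64, Usp45, which acts on the excision repair nuclease ERCC1, at -0.54, and Usp47, which acts on DNA polymerase beta, at -0.43. The histone H2A enzymes Usp3 (-0.33) and Usp16 (-0.22) and the BRCA2 partner Usp11 (-0.22) completed it. Of the checkpoint genes set beside Usp44, Cdc20 fell by 5.58, Mad2l1 by 4.00 and Cetn2 by 0.66 on the log2 scale.

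**Figure D2:**
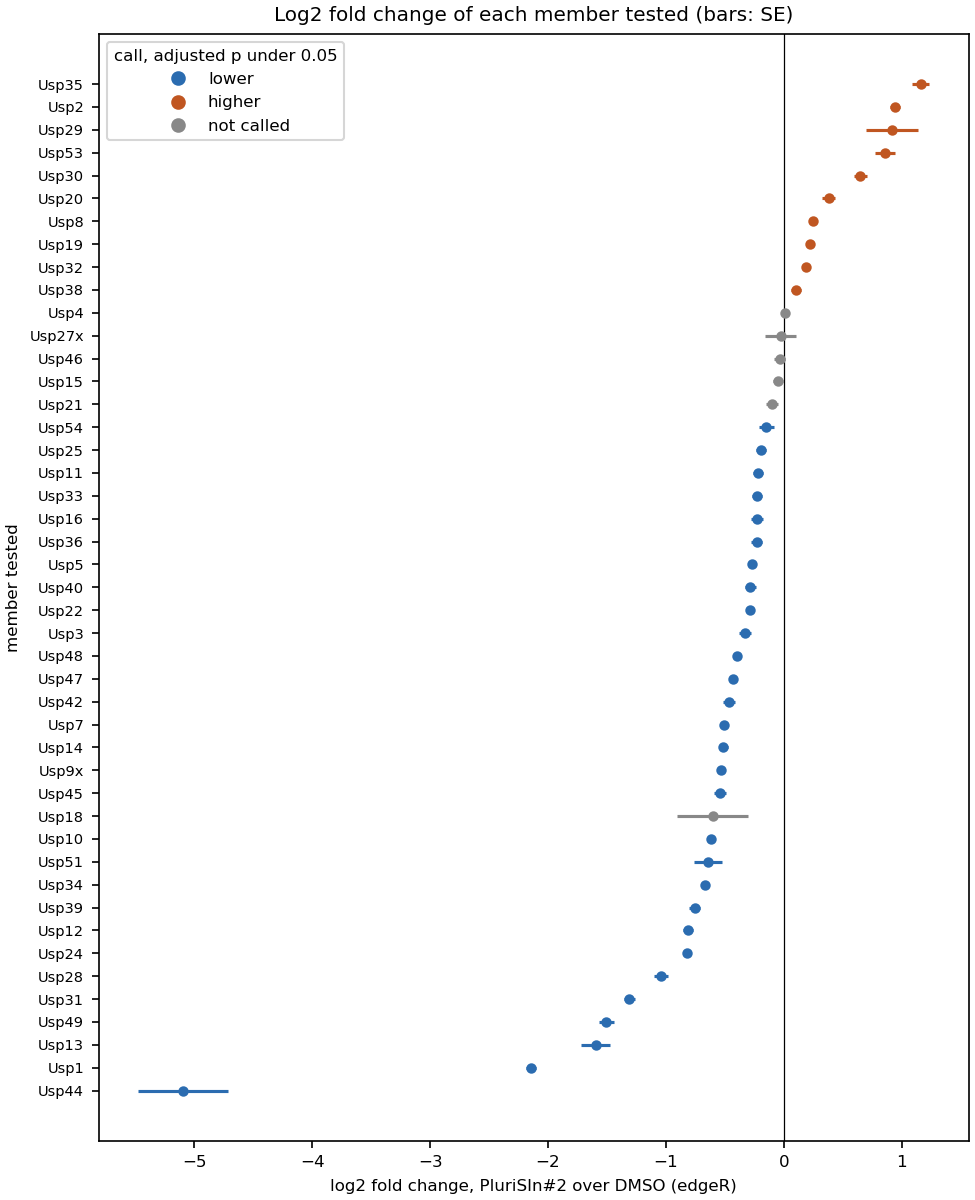
Log2 fold change of PluriSIn#2 over DMSO (horizontal axis) for each of the 45 members tested, in order of size, with bars for the SE and colour for the call. Usp44 at -5.10 and Usp1 at -2.14 stand apart from a run of small falls, and 11 members lie to the right of 0, the 10 called higher and Usp4 at 0.01, which was not called.

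The 5 members listed for p53 and its ubiquitin ligase Mdm2 went in both directions, with 3 falls and 2 rises. Usp7, which spares Mdm2 and p53 from degradation, fell from 224, 223 and 231 CPM to 164, 158 and 156 CPM (log2 fold change -0.51, SE 0.030, adjusted p = 2.53e-28). Usp10 (-0.62) and Usp42 (-0.47), which both act on p53, fell by similar amounts. Cofactor genes fell as well: Gmps, whose product stimulates USP7, by 0.80, and G3bp1, whose product binds USP10 in stress granules, by 1.24.

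Usp2 rose by nearly the same factor in each treated library. It encodes a protease of Mdm2 and cyclin D1 whose transcript follows the circadian clock in many tissues. Its level was 47.7, 50.5 and 52.9 CPM in DMSO and 93.8, 98.6 and 98.2 CPM in PluriSIn#2, a 1.92-fold difference (log2 fold change 0.94, SE 0.044, adjusted p = 6.74e-35). Of 10 clock output genes, listed with earlier results of these data known, 9 rose, with a median of 1.13. Among them were Dbp (3.01) and Nr1d1 (1.62). Ciart fell (-0.26, adjusted p = 0.0463), a call that ended in DESeq2 (0.149). A link of the Usp2 rise to the clock was not tested.

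Usp29, an imprinted gene beside Peg3 whose product acts on p53, was scarce, with 33, 33 and 29 reads in DMSO and 46, 67 and 63 reads in PluriSIn#2. That is 1.85, 1.86 and 1.55 CPM against 2.59, 3.67 and 3.69 CPM, so treated replicate 1 lay nearest to the controls. The log2 fold change was 0.92 (SE 0.22, adjusted p = 8.97e-05), and with treated replicate 1 alone it was 0.57 and not called (adjusted p = 0.125). That fit used the only treated library whose labels all read PluriSIn#2; it took the spread from the DMSO libraries and assumed that the lone library varies like them. Of the genes of the proteins themselves, Mdm2 rose by 1.37 on the log2 scale, while Trp53, the p53 gene, was at -0.69 and Mdm4 at -1.24.

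The list for chromatin, the nucleolus and splicing held 5 falls, no rise and 2 members that were not called. Usp49, a histone H2B protease linked to splicing and a paralogue of Usp44, fell from 44.4, 47.0 and 44.8 CPM to 15.7, 16.9 and 15.4 CPM. The 3 treated values were tightly grouped below the controls (log2 fold change -1.50, SE 0.066, adjusted p = 1.25e-36). In GENCODE 51.2% of the exonic bases of Usp49 are shared with Gm20517 on the same strand. Gm20517 is not among the genes of the count table, so reads of its transcripts in those bases could be counted for Usp49. The part of such reads in the Usp49 value was not tested. Usp39, a splicing factor that has lost protease activity, fell by 0.76. Usp48 (-0.40), the SAGA complex subunit Usp22 (-0.29) and the nucleolar Usp36 (-0.23) fell by less.

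The other chromatin members were not called. Usp27x, which can stand in for Usp22, was at 6.89, 7.76 and 5.71 CPM in DMSO and 6.71, 6.85 and 6.38 CPM in PluriSIn#2. The treated values lay inside the range of the controls (log2 fold change -0.03, 95% interval -0.28 to 0.23, adjusted p = 0.859). Usp21, another H2A protease, was at 56.4, 56.0 and 51.9 CPM and at 49.6, 52.8 and 50.7 CPM, and the groups overlapped (log2 fold change -0.10, SE 0.050, adjusted p = 0.0545). It was called at -0.14 without DMSO replicate 3 (adjusted p = 0.0119) and at -0.13 without treated replicate 2 (adjusted p = 0.0367). Among 6 genes of the SAGA deubiquitinase module that carries USP22, Atxn7l1 (0.34) and Atxn7l3 (0.19) rose, Atxn7 (-0.24) fell, and 3 were not called. The groups overlapped for Atxn7l1 (adjusted p = 0.012), and its call ended in DESeq2 (0.0841).

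Usp13 and Usp49 were the members with a fall of at least 1.5 on the log2 scale for which RefSeq promoter sequence was at hand. No sequence was matched for Usp1 or Usp44. The 250 bases before the RefSeq start of each are given here on GRCm38.p6, 5′ to 3′ on the plus strand, at chr3:32817376-32817625 and chr17:47630440-47630689. They are shown because cell cycle genes often carry CHR or E2F letters there. Capitals mark matches to the 7 motifs searched, here CCAAT on the minus strand, starting 72 bases before the start of Usp13 and 26 before that of Usp49, and the core of the interferon response element (ISRE) in Usp49 at 146 bases before its start. GENCODE places the start of Usp13 at 32817546, inside the printed window, so the marked CCAAT lies within its GENCODE span.
Usp13: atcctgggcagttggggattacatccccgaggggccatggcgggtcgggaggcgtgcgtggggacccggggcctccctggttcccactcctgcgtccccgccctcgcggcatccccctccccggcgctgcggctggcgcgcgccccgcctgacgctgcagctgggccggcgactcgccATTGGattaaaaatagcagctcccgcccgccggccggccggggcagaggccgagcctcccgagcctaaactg
Usp49: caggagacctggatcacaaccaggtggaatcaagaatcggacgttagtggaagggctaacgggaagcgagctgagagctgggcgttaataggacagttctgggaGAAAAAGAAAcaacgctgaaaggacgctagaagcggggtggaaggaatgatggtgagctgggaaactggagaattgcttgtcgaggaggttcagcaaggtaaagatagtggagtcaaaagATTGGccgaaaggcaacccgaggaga
In neither window were the CHR letters TTTGAA or the E2F letters TTTNNCGC found on either strand.

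Promoter sequence, 250 bases before to 50 after the start, was matched for 37 of the 49 members, of which 34 were tested. CHR letters lay in 3 of the 37 (Usp26, Usp40 and Usp50), where 17.9% of 32851 promoters held them. E2F letters lay in 3 (Usp19, Usp26 and Usp48), against 5.17% of all promoters, and CCAAT in 10, against 37.4%. The E-box CACGTG lay in 4 (7.15% of all), among them Usp31, and the cyclic AMP element TGACGTCA in 1, Usp29 (1.79% of all). The ISRE core was found in Usp49 alone among the members (3.44% of all), and the NRF1 motif in none (0.971% of all). Both strands were searched, and no motif's letters contain those of another.

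Signalling USPs fell or were not called. Of 9 tested, 5 fell and 4 were not called, with a median log2 fold change of -0.53. Usp31, a regulator of NF-kB signalling, fell from 97.6, 99.4 and 94.3 CPM to 38.9, 38.8 and 39.6 CPM. The treated libraries were almost equal, 2.48-fold below the controls (log2 fold change -1.31, SE 0.046, adjusted p = 3.66e-44). Usp12, which works with WDR48 in receptor and Notch turnover, fell from 95.7, 97.3 and 98.6 CPM to 55.0, 56.0 and 55.0 CPM (log2 fold change -0.81, SE 0.042, adjusted p = 7.5e-32). The groups were far apart in that gene too. Usp34, which acts on axin in the Wnt pathway, was at -0.67, and Usp9x, a large X-linked protease of Smad4 and Mcl1, at -0.53. Usp25, which tempers innate immune signalling, was at -0.19.

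The 4 signalling members without a call were Usp4, Usp15, Usp46 and Usp18. Usp4, which acts on the TGF-beta receptor, was at 188, 187 and 184 CPM in DMSO and 192, 185 and 186 CPM in PluriSIn#2. These ranges overlapped at a high level (log2 fold change 0.01, 95% interval -0.05 to 0.07, adjusted p = 0.706), although scaling by library totals gave a rise of 0.082 (adjusted p = 0.00952) and limma on log2(FPKM + 0.1) and log2(FPKM + 1) rises of 0.08 and 0.079 (adjusted p = 0.0218 in both). Usp15, which acts on receptor-regulated Smads, was at 79.5, 81.5 and 81.1 CPM and at 75.6, 79.2 and 79.3 CPM (log2 fold change -0.05, 95% interval -0.13 to 0.03, adjusted p = 0.267). Usp46, the close relative of Usp12, was at 62.6, 62.7 and 61.3 CPM and at 61.5, 57.8 and 62.9 CPM, with overlap (log2 fold change -0.04, 95% interval -0.13 to 0.06, adjusted p = 0.477).

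Usp18 does not cut ubiquitin but the interferon-induced modifier ISG15. It had 27, 22 and 29 reads in DMSO and 18, 19 and 13 reads in PluriSIn#2, at 1.51, 1.24 and 1.55 CPM and 1.02, 1.04 and 0.761 CPM. The treated values were all lower, but the depth left a wide interval (log2 fold change -0.60, 95% interval -1.20 to -0.01, adjusted p = 0.0615 in edgeR and 0.186 in DESeq2). With limma on log2(FPKM + 0.1) Usp18 was called at -0.47 (adjusted p = 0.0255). In the ISG15 system Isg15 itself fell (-1.50) from 0.974 CPM, its activating enzyme Uba7 rose (1.63) from 0.351 CPM, and Ube2l6 and Herc6 were not called.

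Members placed at endosomes, the endoplasmic reticulum and mitochondria mostly rose, 6 of 7 against 1 that fell, with a median of 0.25. These counts held under each of the 14 alternatives tried, which all used the same list. The list was chosen with earlier results of these data known. Usp13, which also has a role at the endoplasmic reticulum, was placed in another list and fell (-1.60). Usp35, a protease found at mitochondria, had the largest rise among the members tested. Its level went from 16.3, 14.2 and 16.5 CPM to 32.9, 35.6 and 36.7 CPM, with no treated library near the controls (2.24-fold, log2 fold change 1.16, SE 0.072, adjusted p = 1.09e-26). Usp30, anchored in the outer mitochondrial membrane where it opposes the ligase parkin, rose from 33.5, 35.9 and 32.3 CPM to 52.6, 53.1 and 53.6 CPM (log2 fold change 0.65, SE 0.054, adjusted p = 2.61e-19). In GENCODE 8.08% of its exonic bases are shared with Alkbh2 and Svop on the opposite strand, and Svop rose from 15.6 to 140 CPM. The part of Svop reads in the Usp30 value was not tested.

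The remaining rises of the list were modest. Usp20, which shares substrates such as the beta-adrenergic receptor with Usp33, rose from 38.0, 38.2 and 33.9 CPM to 46.5, 48.2 and 48.8 CPM (log2 fold change 0.38, SE 0.055, adjusted p = 1.51e-09). Usp33 was the exception, at 86.7, 89.2 and 89.3 CPM against 70.9, 76.4 and 79.9 CPM (log2 fold change -0.22, SE 0.042, adjusted p = 1.12e-06). The pair thus moved apart without overlap between groups in either gene. Usp8, which deubiquitinates cargo such as the EGF receptor at endosomes, rose by 0.25, the reticulum-anchored Usp19 by 0.22 and the Golgi and late endosome protease Usp32 by 0.19. Of the genes of the endosomal sorting partners of USP8, Stam (0.36), Stam2 (0.20) and Hgs (0.10) rose, and Ptpn23 was not called (-0.06). The call of Hgs (adjusted p = 0.0164) ended in DESeq2 (0.0867).

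All 3 members that recycle ubiquitin or serve the proteasome fell. Usp13, a relative of Usp5 that acts on proteins leaving the endoplasmic reticulum, fell from 11.8, 12.4 and 14.6 CPM to 4.74, 4.06 and 4.04 CPM. DMSO replicate 3 was the highest, and the groups stayed far apart (3.02-fold, log2 fold change -1.60, SE 0.12, adjusted p = 6.11e-21). Usp14, a subunit of the proteasome's regulatory particle, was at -0.51. In GENCODE 26.0% of the exonic bases of Usp14 are shared with Thoc1 on the opposite strand, and Thoc1 was at -0.31. Usp5, which takes apart free ubiquitin chains, fell from 242, 233 and 234 CPM to 195, 194 and 199 CPM (log2 fold change -0.27, SE 0.028, adjusted p = 1.42e-14). The genes of the ubiquitin-activating enzymes, Uba1 (-0.47) and Uba6 (-0.64), fell.

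Of 8 members outside the role lists 5 were tested. Usp24, a large protease reported to act on the death regulator Bax and also on p53, though not in the p53 list above, had the highest CPM of the family in DMSO, at 288, 295 and 286 CPM, and stood at 165, 168 and 160 CPM in PluriSIn#2 (log2 fold change -0.82, SE 0.028, adjusted p = 3.18e-44). Usp53, a tight junction protein, rose from 12.9, 13.9 and 12.1 CPM to 22.0, 25.9 and 22.7 CPM (log2 fold change 0.86, SE 0.083, adjusted p = 3.81e-16). In both genes the groups were clearly apart. Usp40 fell (-0.28).

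The calls of Usp54 and Usp38 were unstable. Usp54, the relative of Usp53, was at 38.0, 34.0 and 36.1 CPM in DMSO and 31.9, 30.3 and 35.5 CPM in PluriSIn#2, with overlap (log2 fold change -0.15, SE 0.062, adjusted p = 0.0231). That call ended in DESeq2 (adjusted p = 0.0924), under library totals (0.231), in limma (0.152 and 0.148), without DMSO replicate 1 (0.107), without treated replicate 1 (0.0715) or 2 (0.19), and with treated replicate 1 alone (0.0678). Usp38, the relative of Usp35, was at 67.5, 68.7 and 68.5 CPM and at 75.7, 72.5 and 72.0 CPM (log2 fold change 0.11, SE 0.043, adjusted p = 0.0204). Its call ended in DESeq2 (adjusted p = 0.0946), without DMSO replicate 1 (0.0594) and without treated replicate 1 (0.125).

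The 4 members below the filter were Usp9y, Usp26, Usp43 and Usp50. Usp9y, on the Y chromosome, had 0 reads in the 6 libraries, which allows a level of up to 0.0279 CPM (3 counts over the 107508318 of all libraries, counting error only). Usp26 had 2 reads, both in DMSO replicate 2. Usp50 had between 0 and 2 reads in each library. Usp43, a relative of Usp31, had 4, 3 and 2 reads in DMSO and 6, 4 and 8 in PluriSIn#2.

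**Figure D3:**
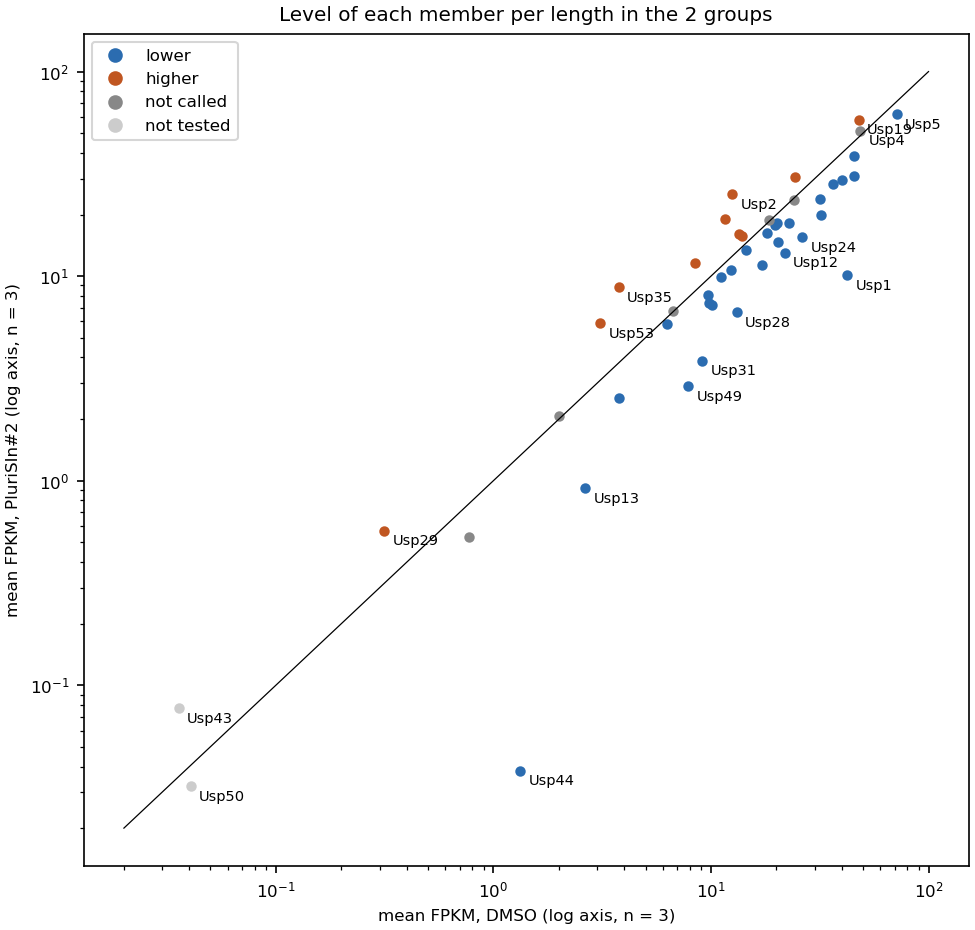
Mean FPKM of each member in DMSO (horizontal, log axis) and PluriSIn#2 (vertical, log axis), n = 3 libraries each, with the line of equality. 47 members are plotted; Usp26, listed at 0 in PluriSIn#2, and Usp9y, without a read, are left out. Usp1 and Usp44 lie farthest below the line, and Usp35, Usp2 and Usp53 lie above it.

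Per length of transcript, Usp5 stayed first while members below it changed rank. FPKM values are the authors' and are not rescaled here, so they sit slightly higher in treated cells than the CPM. Usp5 stood at 71.3 ± 1.46 FPKM in DMSO and 62.0 ± 0.685 FPKM in PluriSIn#2 (mean ± SD, n = 3). Usp4 (48.6 ± 0.674 FPKM) and Usp19 (47.8 ± 2.04 FPKM) followed in DMSO and did not differ beyond their spread. In PluriSIn#2 Usp19 (58.3 ± 0.799 FPKM) stood above Usp4 (51.4 ± 1.08 FPKM). Usp19 had been at 246, 232 and 227 CPM in DMSO and was at 275, 278 and 270 CPM in PluriSIn#2 (log2 fold change 0.22, SE 0.028, adjusted p = 1.91e-11).

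Usp1 moved from rank 6 of 48 in DMSO (42.3 ± 1.94 FPKM) to rank 28 (10.1 ± 0.553 FPKM). Usp2 went the other way, from rank 26 (12.5 ± 0.644 FPKM) to rank 9 (25.2 ± 0.658 FPKM). Usp30 moved from rank 28 to 13 and Usp28 from rank 25 to 35. Among the weakly expressed members, Usp44 dropped from 1.33 ± 0.0676 to 0.0381 ± 0.0385 FPKM and came to lie below Usp43 (0.0770 ± 0.0281 FPKM), which was not tested.

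Closely related members were compared through the ratio of their counts within each library, which needs no scaling between libraries. Of 15 pairs, 13 had ratios that did not overlap between groups. Each of these had p = 0.1 in an exact two-sided permutation test, the smallest possible, and 0.115 after adjustment over the pairs, so none could pass the threshold. Among all genes tested, taken singly, 82.7% showed no overlap. The share among pairs of other genes was not computed, so the count of 13 is a description only. Usp5 and Usp13 drew apart most among pairs with ample reads: the log2 ratio of Usp5 to Usp13 was 4.36, 4.23 and 4.00 in DMSO and 5.36, 5.57 and 5.61 in PluriSIn#2, a 2.49-fold shift. The balance of Usp12 and Usp46, which share WDR48, went from 0.61, 0.63 and 0.69 to -0.16, -0.05 and -0.19. Usp12 counts were thus above those of Usp46 in every control library and below them in every treated one.

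Further pairs shifted as follows. The log2 ratio of Usp25 to Usp28 rose by 0.86, that of Usp35 to Usp38 by 1.06, that of Usp2 to Usp21 by 1.05, while that of Usp53 to Usp54 went up 2.01-fold, and that of Usp20 to Usp33 rose by 0.61 on the log2 scale. For Usp44 to Usp49 the change was -3.85, between -2.99 and -4.53 when 1 library was left out, since it rests on the 6 treated Usp44 reads. For Usp31 to Usp43 the change was -2.23 with at most 8 Usp43 reads in a library. Usp4 and Usp15 (change 0.06, p = 0.3, adjusted 0.3, exact permutation test) and Usp7 and Usp47 (change -0.08, p = 0.2, adjusted 0.214, exact permutation test) were the pairs whose ratios overlapped between groups.

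**Figure D4:**
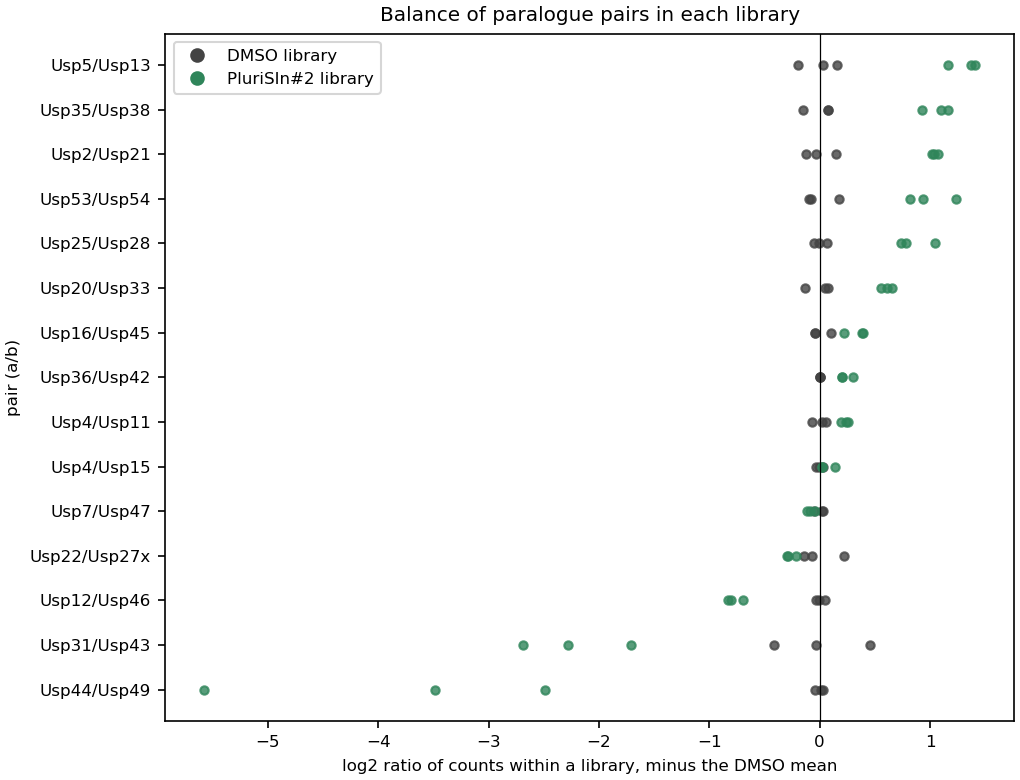
Log2 ratio of the counts of each pair within a library, minus the mean of the 3 DMSO libraries (horizontal axis), for 15 pairs (rows), with 1 point per library. The treated points of Usp5/Usp13 lie to the right of the controls and those of Usp12/Usp46 and Usp44/Usp49 to the left, while those of Usp4/Usp15 and Usp7/Usp47 overlap the controls.

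The members are spread over 17 chromosomes, with 5 each on chromosomes 9, 11 and X. Of the members described above, Usp1 lies on chromosome 4 from 98923810 to 98935543, Usp44 on chromosome 10 from 93831555 to 93858088, Usp2 on chromosome 9 from 44067021 to 44095627 and Usp35, on the minus strand, on chromosome 7 from 97309380 to 97332020 (GENCODE M21, GRCm38). Usp4 and Usp19 are neighbours on chromosome 9, 98.1 kb apart, with log2 fold changes of 0.01 and 0.22. Usp50 overlaps the span of Usp8 on the opposite strand of chromosome 2. For 30 of the 49 members no exonic base is shared with another GENCODE gene, and for 7 over 10% are, among them Usp49, Usp14, Usp33, Usp38 and Usp34. The strand setting of the counting is not known from the labels, and for these genes reads of the partner cannot be told apart.

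Gene size and the change were compared as a description. Across the 45 members the log2 fold change and the log10 of the gene span had a Pearson r of 0.06 and a Spearman rho of -0.09, and across the 13878 genes tested that matched the annotation these were -0.01 and -0.05. Genes share their libraries and are not independent, so these are descriptions. Usp1, with a span of 11.7 kb, and Usp19, also at 11.7 kb, moved in opposite directions, and so did the longer Usp13 (121 kb) and Usp32 (156 kb).

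**Figure D5:**
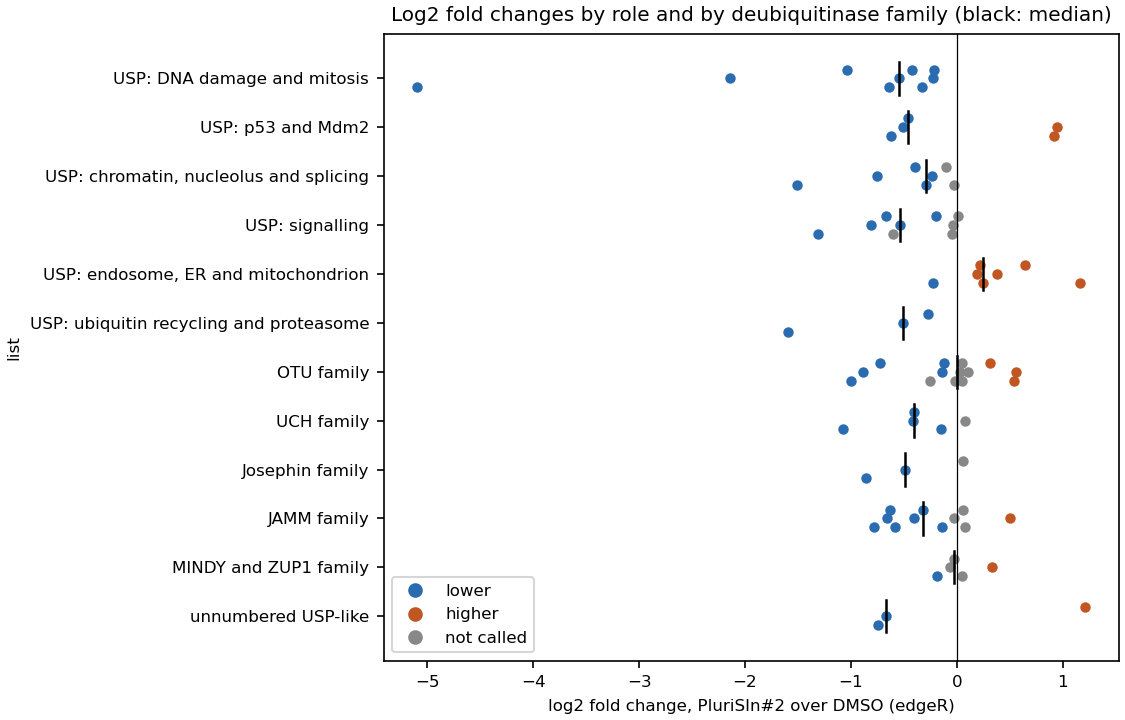
Log2 fold change of PluriSIn#2 over DMSO (horizontal axis) for each tested gene of the 6 USP role lists and of 6 other groups of deubiquitinases (rows), coloured by call, with a black line at each median. The list for endosome, ER and mitochondrion has its median at 0.25, and the 5 other USP lists have theirs between -0.54 and -0.29.

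Other deubiquitinases and relatives, among them 3 USP-like genes without a number, were counted beside the USPs. The difference between the groups was not tested. Of 41, 21 fell, 6 rose and 14 were not called (65.9% called, beside 82.6% of all genes tested), with a median of -0.14. Genes listed for the JAMM family fell in 7 of 11, with the proteasome subunit gene Psmd14 at -0.66. Active proteases of this family use zinc. The list also holds relatives without that zinc site: Eif3f (-0.32), Eif3h (-0.63) and Psmd7 (-0.58) fell, and Cops6 was not called. Genes of the UCH family fell in 4 of 5, and Uchl5, also proteasomal, was at -1.07. The OTU family was divided, with 5 falls, 3 rises and 6 not called, a split that turned to 3 falls and 5 rises under library totals. The changes furthest from 0 were those of Cyld, Uchl5 and the OTU gene Yod1 (13.7 ± 0.671 to 6.84 ± 0.974 CPM). Cyld is a USP-like tumour suppressor that cuts linear and lysine-63 chains. It went from 28.9 ± 2.31 to 67.1 ± 1.81 CPM (log2 fold change 1.21), a larger rise than that of Usp35 (1.16). Of 9 genes of the Senp and Desi groups, most of them for proteases of the related modifier SUMO, 6 fell, led by Senp1 (-1.16), and Desi1 rose (0.42).

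In the authors' deposited table, 28 of the 45 members were lower and 9 higher at an adjusted p under 0.05, and 8 were not called. The members called here but not in the authors' deposited table were Usp54 (adjusted p there 0.0925) and Usp38 (0.0946). For Usp44 the authors' deposited table gives a log2 fold change of -5.19, for Usp1 -2.15 and for Usp2 0.94.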

How the data were processed

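STAR, HTSeq, DESeq and mm10 were used, per the submitters' processing notes; versions, annotation, strand setting and filters were not given in the sources used here. Deposited by the authors were whole-number read counts per gene and a table of FPKM, log2 fold changes and raw and adjusted p-values, in which 25 names had turned into dates and were left out. Counts were fitted in R 4.3.3 with edgeR 4.0.16 (filterByExpr, TMM, quasi-likelihood F test, group as the only term, all 6 libraries, threshold 0.05) over 14417 genes. SEs come from the fitted value and its F statistic, and 95% intervals are ± 1.96 SE. CPM use TMM-scaled totals. DESeq2 1.42.0 and limma 3.58.1 served as alternatives, and the code was tested on simulated data. Ratios of pairs had 0.5 added to each count. GENCODE M21 and RefSeq (both GRCm38) gave positions and promoters. Members, lists and pairs were chosen with earlier results of these data known. Full values are given for members called with an absolute log2 fold change of at least 0.8, the 3 most abundant by FPKM, members not called at 1 CPM or more, and related pairs called in opposite directions; values per library for Usp7, and the 2 promoters, were added after values were seen, since no member met the promoter rule, which asked for CHR or E2F letters beside a change of at least 1.5. Chi-square statistics per degree of freedom between replicates were 1.56 to 2.22, so no 2 libraries agreed within sampling noise. Some genes of the lists are not reported here.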

Additional observations from a re-analysis of the deposited data

How the results depend on the processing

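The counts of members called stayed between 37 and 40 under all 14 alternatives, with 9 to 11 higher and 28 to 30 lower, and no called member changed sign. The median log2 fold change of the members was -0.21 under library totals, -0.30 with treated replicate 1 alone, -0.21 and -0.20 with limma on log2(FPKM + 0.1) and log2(FPKM + 1), and between -0.30 and -0.27 when 1 library was left out. Library totals moved the median of all genes from 0.01 to 0.08, which by construction shifts every gene. Signs changed only for members that were not called: Usp4 (-0.0032 without DMSO replicate 3, -0.0064 without treated replicate 1, and up to 0.023 with 1 library left out), Usp15 (0.021 under library totals, 0.02 and 0.017 in limma), Usp27x (0.044 under library totals, between -0.14 and 0.076 with 1 library left out, 0.076 being without DMSO replicate 2, 0.047 and 0.031 in limma) and Usp46 (0.034 under library totals, between -0.064 and 0.0015 with 1 library left out, 0.0015 being without treated replicate 2, 0.033 and 0.031 in limma). With the replicate number as a block, 39 members were called (29 lower, 10 higher) and 11851 genes in all, against 11915. The deviations of same-numbered libraries correlated at 0.0134, 0.0293 and -0.0025. These values cannot show whether such libraries shared a mouse or a culture, which the labels do not say. The cause of these moves was not tested. Few reads limit Usp44, Usp29 and Usp18. Counts by role were repeated as alternatives chosen after seeing the data.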
